A study of Homo sapiens with 6 samples.

Results

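Aminoacyl-tRNA synthetases join each amino acid to its transfer RNA, the step on which the accuracy of translation rests. Human cells keep separate sets for the cytosol and for the mitochondrion, and nuclear genes encode both. The genes examined here were those whose array name is one of 36 listed synthetase genes, out of 36328 gene names with a usable probe on the array. They were 20 cytosolic genes, named without the suffix 2, and 16 mitochondrial genes, named with it. Each gene was represented by its brightest probe, meaning the probe with the highest mean log2 signal over all 6 arrays.

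The signal is that of RNA pulled down by its 5′ cap, trimethylguanosine (m3G) or 7-methylguanosine (m7G), from MOLT-4, a T-cell acute lymphoblastic leukaemia cell line. One group, called mock, carried an empty vector, and in the other NUDT16, the gene of an RNA decapping enzyme, had been transfected for overexpression. The labels name no other treatment or alteration of these cells. Each group had 3 Agilent arrays with 1 colour, one for each precipitate. The labels do not say that replicates came from separate cultures, so p-values measure at most the spread between these arrays. Input RNA was not analysed here, so a lower RNA level and less cap-bound RNA cannot be told apart, and neither can fewer expressing cells and less RNA per cell.

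The arrays came as same-numbered pairs. Each pair of mock and NUDT16 arrays shared a slide and a scan. NUDT16 replicate 2 stood apart, with 14.6% of spots well above background against 39.3% to 52.0% on the other 5 arrays, so values by pair, or without that array, stand beside the means described at length. Neither of 2 probes for NUDT16 itself was well above background on any array, so the arrays give no check of the transfection, and the groups are named by their labels alone. Of 14 markers of the T lineage, 10 were well above background on all 6 arrays, among them CD3D, CD3E, CD3G, LCK and PTCRA. Of 14 markers of other cells on the array, 8 were on none of the arrays, among them MS4A1, EPCAM, COL1A1 and HBB, while CD79A and KRT8 were on all 6.

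The cytosolic enzymes differ in how they are housed. EPRS, IARS, LARS, MARS, QARS, RARS, KARS and DARS sit in the multisynthetase complex, held together by the scaffold proteins AIMP1, AIMP2 and EEF1E1. EPRS carries both the glutamate and the proline activity in a single chain, and FARSA and FARSB are the subunits of the cytosolic phenylalanine enzyme. GARS and KARS each encode the enzyme of both compartments and were kept with the cytosolic genes. QARS has no mitochondrial counterpart, because mitochondria make glutaminyl-tRNA by amidation.

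What the array reads for each gene is a probe of 60 bases, printed 5′ to 3′ as the array files give it. The probes of 6 members cross a splice junction, and 4 of these are shown whole because they include the lowest and the highest difference among cytosolic genes. Capitals mark G and C, since base composition is set against the differences further on. GARS is at chr7:30665891-30668190 on the plus strand (hg19, with an intron of 2240 bases skipped inside the interval), CARS at chr11:3038483-3039103 on the minus strand, NARS2 at chr11:78152143-78154745 on the minus strand and FARSA at chr19:13033650-13034973 on the minus strand. Annotated exons and untranslated regions of that build were not used here.
GARS: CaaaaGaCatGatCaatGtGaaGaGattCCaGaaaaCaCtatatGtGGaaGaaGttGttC
CARS: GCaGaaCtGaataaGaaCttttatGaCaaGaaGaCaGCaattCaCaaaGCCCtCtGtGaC
NARS2: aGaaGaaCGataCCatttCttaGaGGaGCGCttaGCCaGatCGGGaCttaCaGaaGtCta
FARSA: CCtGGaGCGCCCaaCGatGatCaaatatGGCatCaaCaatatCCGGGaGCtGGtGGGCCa

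The probes do not resemble each other. Between the cytosolic and mitochondrial gene of the same amino acid, the longest run of shared bases was 7 over 16 gene pairs, and between any 2 members it was 10. HARS and HARS2, which lie next to each other on chromosome 5, have probes of different sequence. Probes were compared with each other only, and whether a probe also binds the RNA of another member was not tested.

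Almost every synthetase gene was found in the cap immunoprecipitate. On each mock array and on NUDT16 replicates 1 and 3, 35 of 36 members were well above background. On NUDT16 replicate 2 only 18 were, made up of 13 of 20 cytosolic and 5 of 15 mitochondrial genes tested, beside 41.7% of all genes tested. Well above background on all 6 arrays were these same 18 members, and 41.3% of all genes tested. MARS2, the mitochondrial methionine enzyme, was the member found on no array. The filter kept a gene where its probe was well above background on all 3 arrays of either group. It was passed by 35 of 36 members and by 13696 of 36328 gene names on the array. For 17 of the 35 members it was the mock group alone that met this, so their NUDT16 mean includes 1 array at background.

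**Figure D1:**
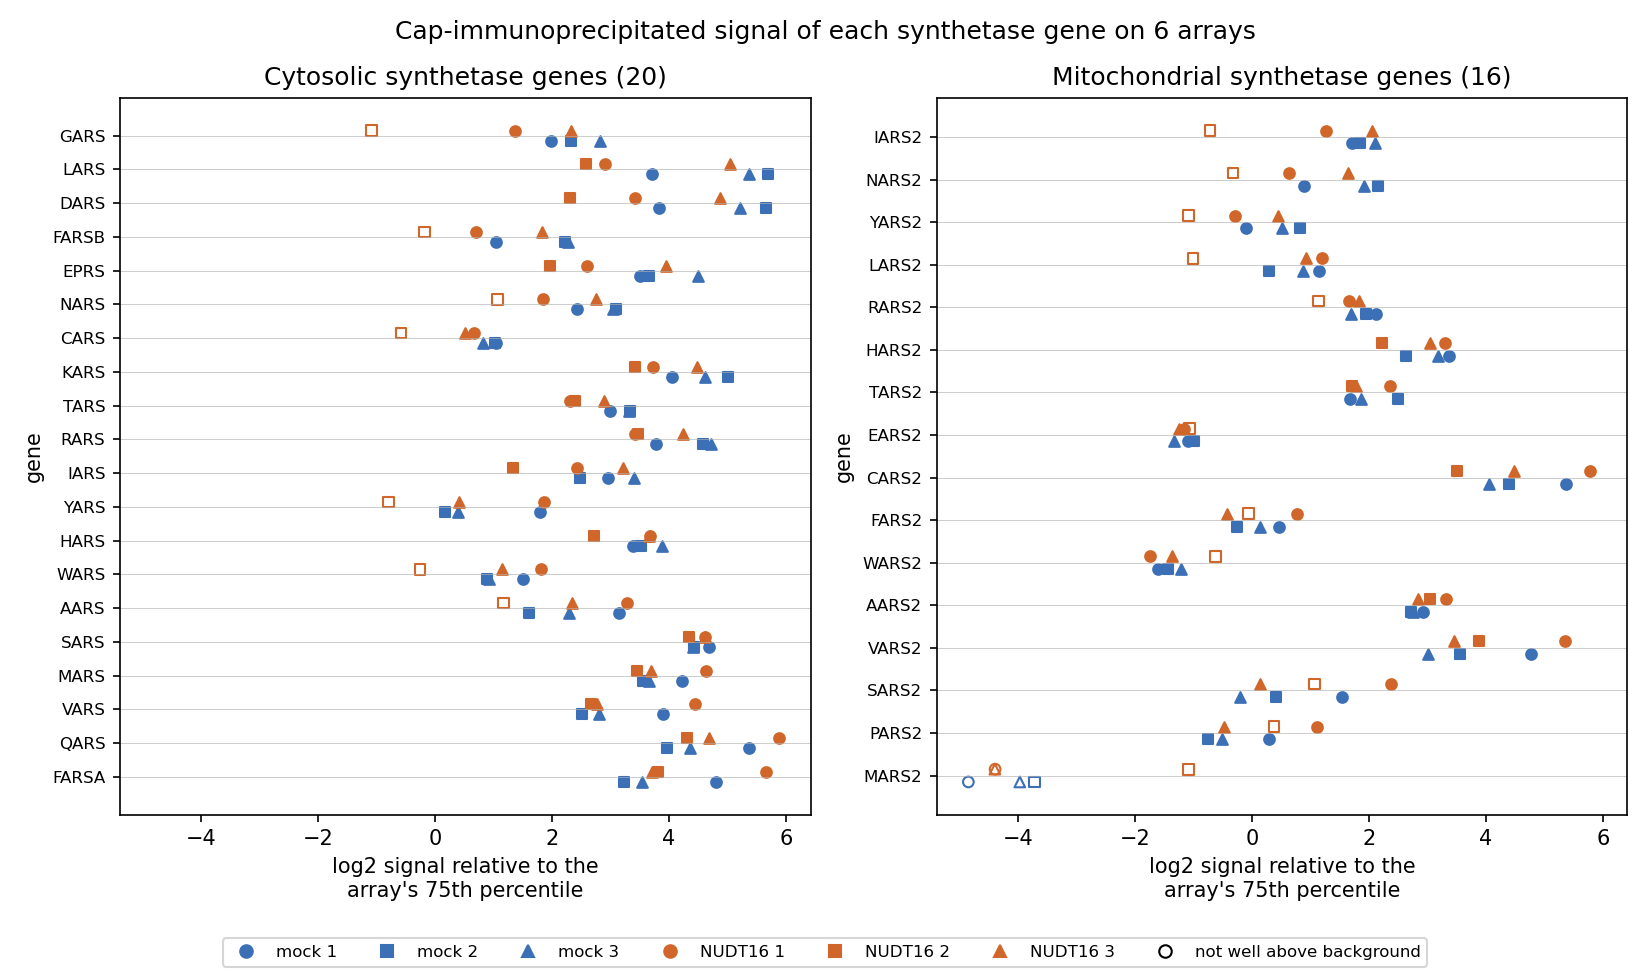
Log2 signal of the brightest probe of each of 36 synthetase genes (x axis, relative to the 75th percentile of the array), with one row per gene ordered by the NUDT16 minus mock difference. Blue points are 3 mock and orange points 3 NUDT16 arrays, shapes give the replicate number, and open points were not well above background; in 18 rows the orange square of NUDT16 replicate 2 is open, and positions are not comparable between genes because each has its own probe.

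No synthetase gene passed the test for a difference between the groups. In limma with Benjamini-Hochberg adjustment over 17765 probes, 0 of 35 members were called and the lowest adjusted p was 0.999; the background was 1 probe (0.00563%) in all. At an unadjusted p under 0.05 there were 0 members and 15 probes (0.0844%, with 0.045% lower and 0.0394% higher on NUDT16 arrays). With the replicate number as a block, 0 members were called (lowest limma adjusted p 0.482) and 3 had an unadjusted p under 0.05, namely EPRS, LARS and GARS, where 7.96% of all probes did. All 3 were lower on NUDT16 arrays, as were 4.4% of all probes at that threshold. The values that follow are therefore descriptions. Unless stated otherwise, a value is a log2 signal relative to the 75th percentile of its array. A difference is then NUDT16 minus mock on that scale, and SE is limma's standard error without the block. Such an SE includes the spread between pairs of arrays. It ran from 0.56 to 0.80 over the members tested, where with the block it ran from 0.29 to 0.62.

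The cytosolic median lay below the mitochondrial median. Of 20 cytosolic genes 15 read lower on NUDT16 arrays and 5 higher, with a median difference of -0.63; of all genes tested 48.6% read lower. Of 15 mitochondrial genes tested, 10 were lower and 5 higher, with a median of -0.02, and the median of all 13696 genes tested was 0.02. Differences ran from -1.51 to 0.53 among cytosolic and from -1.02 to 0.66 among mitochondrial genes. A difference of at least 2-fold downward was seen for 5 cytosolic and 2 mitochondrial genes, against 4.62% of all genes tested, and upward for 0 members, against 2.19%. These counts rest on NUDT16 replicate 2. Without that array 0 members differed by 2-fold downward, against 2.72% of all genes tested, and 11 of 20 cytosolic and 6 of 15 mitochondrial genes read lower, against 51.8%. On replicates 1 and 3 alone, 11 and 7 read lower, against 46.9%, and 0 were 2-fold lower.

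The directions depend on the scaling too: with a median shift or without scaling all 35 members read lower, and the median of all genes tested stood at -0.69 and -1.06. These alternatives shift all genes of an array alike, so counts below the median gene could not change. They were 16 of 20 cytosolic and 10 of 15 mitochondrial genes. Such counts were 17 and 9 with normexp background correction, 14 and 7 with quantile normalization and 13 and 8 with the authors' value table. With an array left out they were 11 and 6 without NUDT16 replicate 2, and 18 and 10 without NUDT16 replicate 1.

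The gap between the classes had the same sign in each pair of arrays. The cytosolic median was -0.33, -1.13 and -0.20 in pairs 1, 2 and 3. The mitochondrial median was 0.06, -0.41 and 0.03, and that of all genes tested was 0.09, -0.06 and 0.01. Cytosolic minus mitochondrial medians were therefore -0.39, -0.71 and -0.23. A shift of a whole array cancels in this gap, but values at background do not. On NUDT16 replicate 2, 7 of 20 cytosolic and 10 of 15 mitochondrial genes tested were at background. What this adds to the gap of pair 2 was not tested. Pair 2, whose NUDT16 array stood apart, held the largest gap; on replicates 1 and 3 alone with the replicate block the medians were -0.29 for cytosolic and 0.01 for mitochondrial genes, and the gap was -0.30, against -0.61 over all arrays.

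**Figure D2:**
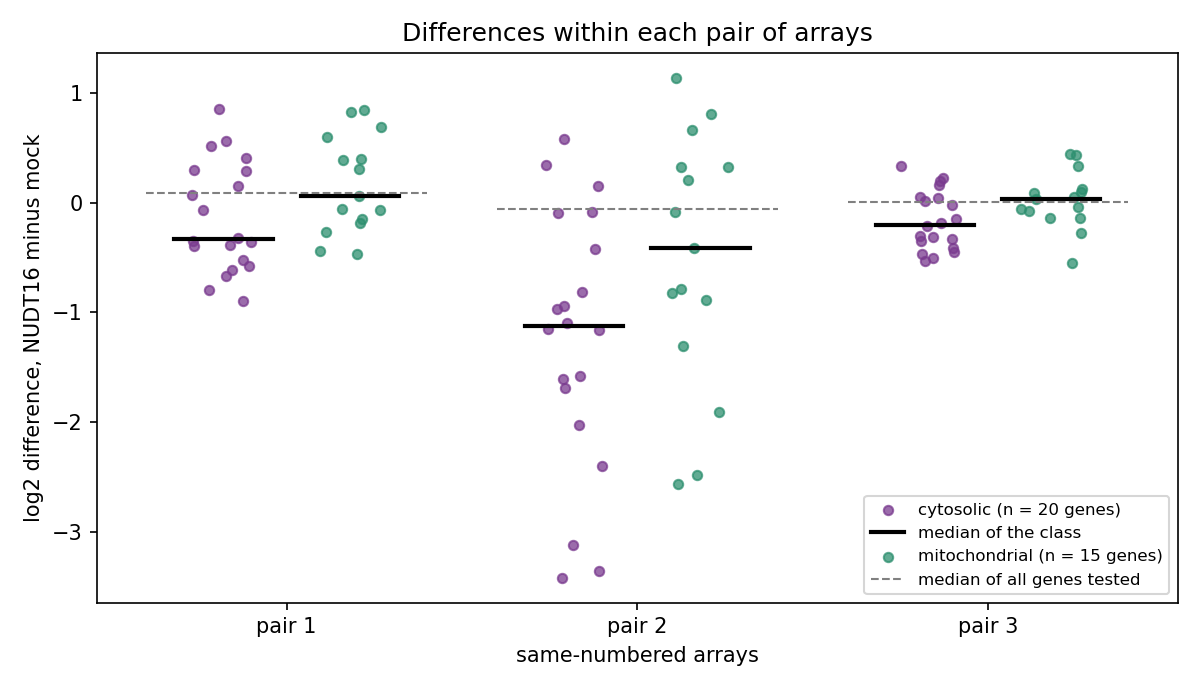
Log2 difference between the NUDT16 and the mock array of the same number (y axis) for 20 cytosolic (purple) and 15 mitochondrial (green) synthetase genes in pairs 1, 2 and 3 (x axis). Black bars are class medians and dashed lines the median of all genes tested; the cytosolic bar lies below the mitochondrial bar in each pair, at -0.33, -1.13 and -0.20 against 0.06, -0.41 and 0.03, and points spread most in pair 2.

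Counted gene by gene, 11 of 20 cytosolic genes were lower in 3 of 3 pairs, and 20.9% of all genes tested were. These were CARS, DARS, EPRS, FARSB, GARS, IARS, KARS, LARS, NARS, RARS and TARS. Only FARSA and QARS were higher in 3 of 3 pairs, where 21.8% of all genes were. Among the mitochondrial genes 4 of 15 were lower throughout (HARS2, IARS2, NARS2 and YARS2) and 4 higher throughout (AARS2, PARS2, SARS2 and VARS2). Of all these genes, CARS, FARSB, GARS, NARS, IARS2, NARS2, YARS2, PARS2 and SARS2 were at background on NUDT16 replicate 2. The lowest value well above background was 1.18 on that array and -2.17 on mock replicate 2. A background value in pair 2 can thus exceed a detected mock value. Measured from the median gene of each pair, which takes out any shift of a whole array, the counts were again 11 and 2 of the cytosolic and 4 and 4 of the mitochondrial genes. The background on that measure was 22.1% below and 21.3% above.

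The largest downward difference belonged to GARS, the glycine enzyme of both compartments, which was singled out after its values were seen. It read 1.98, 2.33 and 2.82 on mock replicates 1, 2 and 3 and 1.37, -1.08 and 2.32 on the NUDT16 arrays. The middle NUDT16 value was not well above background, and the groups overlap. The difference was -1.51 (SE 0.80, limma adjusted p 0.999). By pair it was -0.61, -3.42 and -0.50, so pair 2 set most of its size, and on replicates 1 and 3 alone it was -0.56.

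LARS and DARS, the leucine and aspartate enzymes of the multisynthetase complex, behaved alike. LARS read 3.70, 5.70 and 5.37 on the mock and 2.90, 2.58 and 5.04 on the NUDT16 arrays. DARS read 3.82, 5.67 and 5.22 on the mock and 3.43, 2.31 and 4.87 on the NUDT16 arrays. In both genes mock replicate 1 lay well below mock replicates 2 and 3, NUDT16 replicate 2 lay lowest of all, and the groups overlap. The differences were -1.42 (SE 0.78) for LARS and -1.37 (SE 0.75) for DARS. By pair these were -0.80, -3.12 and -0.33 for LARS. For DARS they were -0.40, -3.35 and -0.35.

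Of the cytosolic genes that differed by more than 1 on the log2 scale, EPRS varied least between pairs. It read 3.50, 3.66 and 4.49 on the mock and 2.60, 1.97 and 3.96 on the NUDT16 arrays, well above background on all 6. Each NUDT16 array lay below its own mock partner, while NUDT16 replicate 3 lay above mock replicates 1 and 2. The difference was -1.04 (SE 0.66, limma adjusted p 0.999), with -0.90, -1.69 and -0.54 by pair. In the fits on replicates 1 and 3 alone with the block it was the member nearest to a call, and 0 members were called. There it stood at -0.72 (limma adjusted p 0.099), where 2.83% of all probes were called and 2.03% were called lower. With that fit scaled on probes detected on all arrays it stood at -0.94 (limma adjusted p 0.0518), where 3.45% were called, 3.38% lower and 0.0675% higher. Every member had the same standard error in these fits, 0.26 in the first and 0.30 in the second. Their p-values therefore follow the size of the difference and do not measure the spread of EPRS between arrays.

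TARS, the threonine enzyme, and CARS, the cysteine enzyme, were the members whose groups did not overlap, against 0.956% of all genes tested in that direction. TARS read 2.99, 3.34 and 3.31 on the mock and 2.32, 2.39 and 2.90 on the NUDT16 arrays, well above background on each. All NUDT16 values lay below the lowest mock value, by a margin smaller than the spread within the NUDT16 group. The means were 3.21 ± 0.20 (SD, n = 3) and 2.53 ± 0.32 (SD, n = 3), a difference of -0.68 (SE 0.57, limma adjusted p 0.999). By pair it was -0.67, -0.95 and -0.42. CARS read 1.05, 1.02 and 0.82 on the mock and 0.66, -0.58 and 0.51 on the NUDT16 arrays, with -0.58 not well above background. Its difference was -0.77 (SE 0.60), with -0.39, -1.60 and -0.31 by pair. For either gene p was 0.1 in an exact permutation test (two-sided), the smallest value possible for 3 arrays against 3. Any gene without overlap gets this value, so the test adds nothing to the lack of overlap. Without scaling between arrays the groups overlap for both.

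KARS, the lysine enzyme of both compartments, and RARS, the arginine enzyme, lay lower by a smaller amount. KARS read 4.05, 5.004 and 4.62 on the mock and 3.73, 3.42 and 4.47 on the NUDT16 arrays, a difference of -0.68 (SE 0.60) with -0.32, -1.58 and -0.15 by pair. RARS differed by -0.64 (SE 0.60), with -0.36, -1.10 and -0.47 by pair. Their groups overlap. FARSB and NARS, the asparagine enzyme, differed by -1.07 and -0.97, each with NUDT16 replicate 2 at background. By pair NARS differed by -0.58, -2.02 and -0.30.

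The isoleucine enzyme IARS had 3 probes that passed the filter, and all read lower on NUDT16 arrays in every pair. The brightest, at chromosome 9, positions 94972871 to 94972930, differed by -0.62 (SE 0.65), with -0.52, -1.16 and -0.19 by pair. The probe at positions 94991283 to 94991342 differed by -0.82, and that at 95043107 to 95043166 by -1.69. The probes shared a direction and differed in size, and both dimmer probes were at background on NUDT16 replicate 2.

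FARSA and FARSB, which form a single enzyme, lay in opposite directions. FARSA read 4.80, 3.24 and 3.55 on the mock and 5.65, 3.81 and 3.71 on the NUDT16 arrays. Replicate 1 was the highest of each group and the groups overlap. FARSA differed by 0.53 (SE 0.71), with 0.85, 0.58 and 0.16 by pair. FARSB read 1.05, 2.22 and 2.28 on the mock and 0.70, -0.18 and 1.83 on the NUDT16 arrays, and was lower by 0.35, 2.40 and 0.45 within the pairs. The difference between the subunits was not tested.

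QARS, the glutamine enzyme, was the other cytosolic gene higher throughout. It read 5.37, 3.98 and 4.35 on the mock and 5.89, 4.32 and 4.68 on the NUDT16 arrays. Its difference was 0.40 (SE 0.65), and the values by pair, 0.52, 0.34 and 0.33, were among the most even of all members. The groups overlap, replicate 1 being the highest of each.

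VARS, the valine enzyme, read 3.89, 2.51 and 2.80 on the mock and 4.45, 2.66 and 2.77 on the NUDT16 arrays, a difference of 0.23 (SE 0.68). MARS, the methionine enzyme, read 4.22, 3.56 and 3.66 on the mock and 4.63, 3.46 and 3.70 on the NUDT16 arrays, a difference of 0.12 (SE 0.60). Replicate 1 was the highest of each group in both genes, the groups overlap, and the signs varied between pairs. The other MARS probe differed by 0.33, with 0.21, 1.12 and -0.35 by pair, and by -0.15 without NUDT16 replicate 2. The sign of FARSA, QARS, VARS and MARS turned without scaling between arrays, with a median shift and with normexp background correction. It turned without NUDT16 replicate 1 as well, to -0.10, -0.065, -0.35 and -0.23, and for VARS and MARS without mock replicate 2, to -0.049 and -0.012.

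SARS, the serine enzyme, had the smallest difference of the cytosolic genes. It read 4.69, 4.43 and 4.42 on the mock and 4.62, 4.35 and 4.62 on the NUDT16 arrays. All 6 values lay between 4.35 and 4.69, and the difference was 0.01 (SE 0.56). Its other probes, at background on NUDT16 replicate 2, differed by -0.21 and -0.07, so the probes of this gene differ in sign. HARS, AARS, WARS and YARS differed by -0.25, -0.07, -0.21 and -0.30, each with a sign that varied between pairs.

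Within the multisynthetase complex 6 of 8 enzymes were lower in 3 of 3 pairs, with a median difference of -0.66. The 12 cytosolic genes outside it had a median of -0.27, with 5 lower in 3 of 3 pairs. On replicates 1 and 3 alone the medians were -0.37 inside and 0.04 outside the complex, and without NUDT16 replicate 2 they were -0.49 and 0.088. The synthetases fall into classes I and II by the fold of their catalytic domain. EPRS, which also carries the proline activity of class II, was counted in class I. The 10 cytosolic class I genes had a median of -0.46 and the 10 of class II -0.68. Without NUDT16 replicate 2 these medians were 0.11 and -0.50, and on replicates 1 and 3 alone -0.15 and -0.31. Whether these sub-lists differ was not tested.

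Among the mitochondrial enzymes the values were spread about 0. VARS2 read 4.77, 3.56 and 3.02 on the mock and 5.36, 3.88 and 3.46 on the NUDT16 arrays, well above background on all 6. Each NUDT16 array lay above its partner, though replicate 1 was the highest of each group and the groups overlap. The difference was 0.45 (SE 0.70), with 0.59, 0.32 and 0.44 by pair. AARS2 read 2.93, 2.72 and 2.75 on the mock and 3.31, 3.04 and 2.84 on the NUDT16 arrays, a difference of 0.26 (SE 0.56), with 0.39, 0.32 and 0.08 by pair. Its groups overlap as well. SARS2 (0.61) and PARS2 (0.66) were higher in each pair as well, with NUDT16 replicate 2 at background. The sign of VARS2 and AARS2 turned without scaling, with a median shift and with normexp, and that of VARS2 also without NUDT16 replicate 1, to -0.11.

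The mitochondrial genes detected on all 6 arrays and lower on average differed little. HARS2 read 3.36, 2.64 and 3.19 on the mock and 3.30, 2.23 and 3.05 on the NUDT16 arrays, a difference of -0.20 (SE 0.59). Its cytosolic neighbour HARS differed by -0.25 (SE 0.59). TARS2 read 1.68, 2.50 and 1.86 on the mock and 2.37, 1.72 and 1.78 on the NUDT16 arrays, a difference of -0.06 (SE 0.58). CARS2 read 5.38, 4.40 and 4.05 on the mock and 5.77, 3.51 and 4.49 on the NUDT16 arrays, a difference of -0.02 (SE 0.70). Groups overlap in all 3 genes, and the signs of TARS2 and CARS2 varied between pairs. Without NUDT16 replicate 2 the sign turned for HARS2 (0.11), TARS2 (0.059) and CARS2 (0.52), and for the last 2 it also turned without NUDT16 replicate 3 (0.027 and 0.033).

 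The largest mitochondrial differences, -1.02 for IARS2 and -1.01 for NARS2, came from pair 2, where NUDT16 replicate 2 was at background; in pairs 1 and 3 they were -0.44 and -0.044 for IARS2 and -0.27 and -0.28 for NARS2.

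YARS2 differed by -0.72, with -0.18, -1.91 and -0.064 by pair. LARS2 differed by -0.40, with 0.055, -1.30 and 0.048 by pair, and by 0.29 without NUDT16 replicate 2. RARS2 differed by -0.39, with -0.46, -0.83 and 0.13 by pair. EARS2, FARS2 and WARS2 lay at -0.02, -0.02 and 0.17. For MARS2 a difference is not given, since both groups were at background.

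Set against the mitochondrial gene for the same amino acid, the cytosolic gene had the lower difference in 11 of 15 gene pairs. In 7 of these it was lower in each pair of arrays: alanine, cysteine, glutamate, leucine, serine, threonine and valine. Only for threonine and valine were both genes well above background on all 6 arrays. AARS, CARS, EARS2, LARS2 and SARS2 were at background on NUDT16 replicate 2, so their gaps in pair 2 include a background value. For cysteine the gap between CARS and CARS2 was -0.78, -0.72 and -0.75 in pairs 1, 2 and 3, with CARS at background in the second. For leucine the gap between LARS and LARS2 was -0.85, -1.82 and -0.38. The order was the reverse in every pair of arrays for FARSA against FARS2 (0.54, 0.37 and 0.71) and for YARS against YARS2 (0.25, 0.94 and 0.08). FARS2, YARS and YARS2 were likewise at background on NUDT16 replicate 2. FARS2 enters with both FARSA and FARSB, and EPRS was set against EARS2 and not PARS2, so the 15 are not independent.

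**Figure D3:**
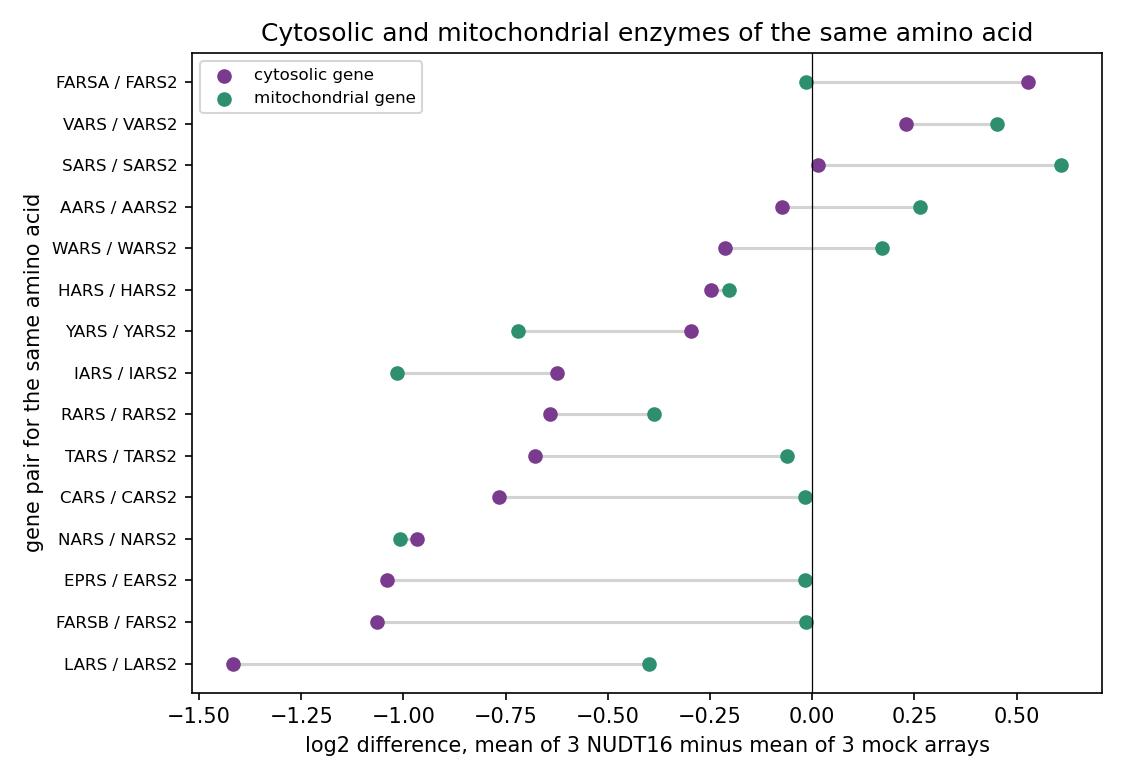
Log2 difference between the means of 3 NUDT16 and 3 mock arrays (x axis) for the cytosolic (purple) and mitochondrial (green) gene of the same amino acid, one row for each of 15 gene pairs. Grey lines join the genes of a pair; the purple point lies to the left in 11 rows, and furthest left in the leucine row at -1.42 against -0.40.

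Among cytosolic genes the base composition of the probes moved with these differences in each pair, and among mitochondrial genes mainly in pair 3. Probe GC content ran from 30% in MARS to 55% in AARS, FARSA, SARS2, VARS and YARS, with a median of 41.7% in cytosolic and 45% in mitochondrial genes tested. Of the probes printed above, GARS has 35% GC and FARSA 55%. Across 35 members, GC content and difference had Spearman's rho of 0.50, 0.36 and 0.57 in pairs 1, 2 and 3. By class it was 0.59, 0.58 and 0.55 among cytosolic and 0.23, -0.05 and 0.59 among mitochondrial genes. Across all 13696 genes tested it was 0.33, 0.40 and -0.002. These are descriptions over probes that share their arrays. AARS2, with 35% GC, and MARS, with 30%, read higher on average all the same. WARS2, also with 35%, differed by -0.15, 0.80 and -0.14 in pairs 1, 2 and 3, with NUDT16 replicate 2 at background.

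Removing each array's trend of signal on probe GC, an alternative chosen after the data were seen, left the cytosolic median at -0.55 and the mitochondrial at 0.03. The gap was then -0.41, -0.85 and -0.23 in pairs 1, 2 and 3, where it had been -0.39, -0.71 and -0.23. Spearman's rho between GC content and difference across the 35 members was then 0.17, 0.065 and 0.58, so in pair 3 their association with GC was still there after the removal. The part of probe composition in the class gap was not tested. VARS turned to -0.23 and TARS2 to 0.07. On replicates 1 and 3 with this trend removed, EPRS was at -0.65 (limma adjusted p 0.089) and 0 members were called, against 1.34% of all probes, 0.934% lower.

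**Figure D4:**
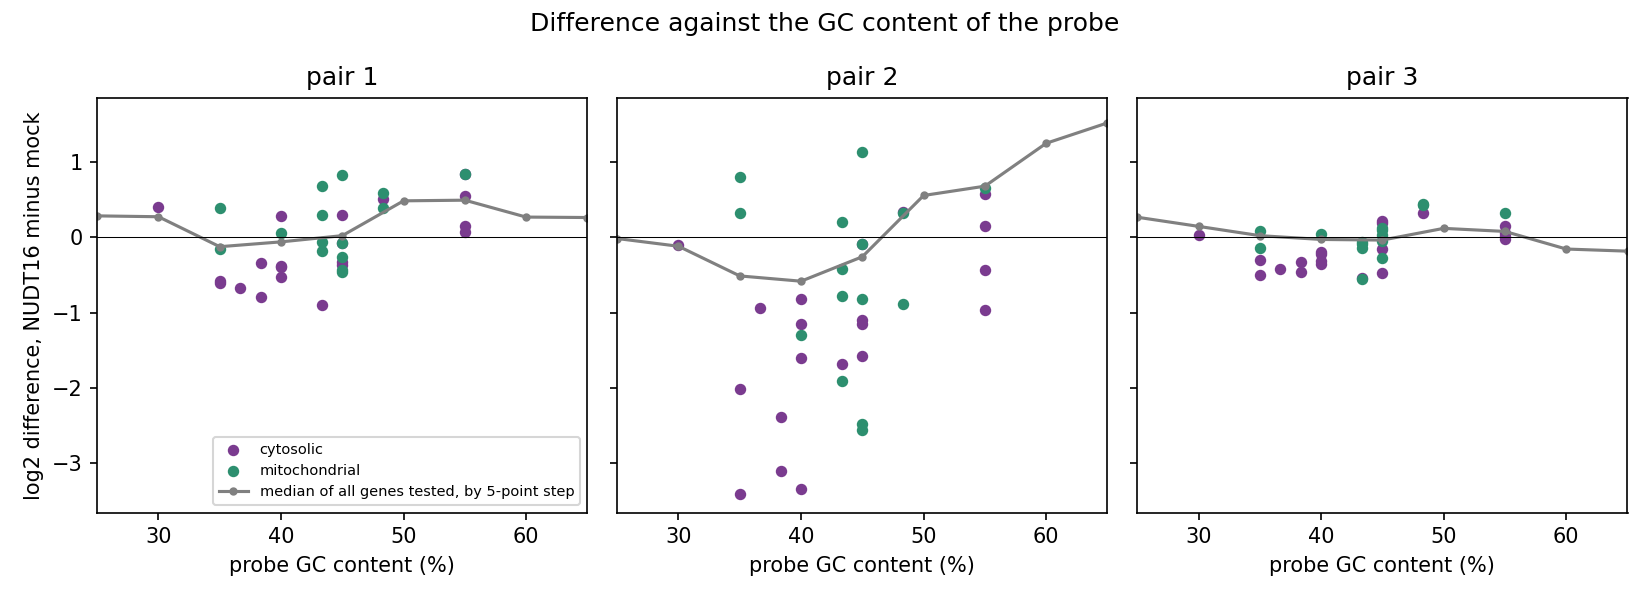
Log2 difference within pairs 1, 2 and 3 (y axis) against the GC content of the probe in percent (x axis) for cytosolic (purple) and mitochondrial (green) synthetase genes; the grey line joins medians of all genes tested in steps of 5 points. Most members at 35% to 40% GC lie below 0; the grey line stands at -0.12 and 0.497 at 35% and 55% GC in pair 1, at -0.51 and 0.68 in pair 2, and at 0.024 and 0.081 in pair 3.

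The genes that work beside the synthetases read both higher and lower, and 0 were called over all arrays. Of 24 listed names 22 were on the array under that name and 21 were tested, with a median difference of -0.14, 15 lower and 6 higher. On replicates 1 and 3 alone with the block the median was 0.073. There 1 of them, SEPSECS, which makes selenocysteinyl-tRNA, was called lower with scaling on probes detected on all arrays, where 3.45% of all probes were called. SEPSECS was well above background on 4 arrays only. On NUDT16 replicate 1 it read -3.48, below the lowest value well above background on that array (-2.47), so that call includes a background value. By role, the complex scaffold AIMP1 differed by -0.97 (SE 0.67) and EEF1E1 by -0.45 (SE 0.72), both with a positive value in pair 1, and AIMP2 by 0.14. AIMP1 read 2.62, 4.86 and 3.67 on the mock and 2.74, 2.30 and 3.19 on the NUDT16 arrays. Pair 2 alone held a difference of more than 1. Of the genes for charged-tRNA delivery, EEF1A1, the cytosolic elongation factor, differed by -0.46 (SE 0.58), with -0.051, -1.24 and -0.093 by pair. TUFM, its mitochondrial counterpart, differed by 0.44 (SE 0.65). TUFM read higher in each pair, by 0.76, 0.28 and 0.29, on the 75th percentile scale. GFM1, another mitochondrial elongation factor, had the lowest value of the partner genes at -1.45, with -0.38, -3.78 and -0.19 by pair and NUDT16 replicate 2 at background. By list, the 5 cytosolic elongation genes had a median of -0.036 and the 4 mitochondrial ones -0.15. Of the subunits of the exchange factor of EEF1A1, EEF1G and EEF1D differed by 0.20 and 0.19 and EEF1B2 by -0.38. By pair EEF1B2 differed by -0.40, -1.29 and 0.55. XPOT, which exports tRNA from the nucleus, and TRNT1, which adds its CCA end, read lower in each pair, XPOT by -0.77, -2.72 and -0.26 and TRNT1 by -0.26, -1.48 and -0.18, with NUDT16 replicate 2 at background. Of the partner genes 5 of 21 were lower and 2 higher in 3 of 3 pairs, shares near the 20.9% of all genes for the first and under the 21.8% for the second.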

How the data were processed

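Per the file headers, the arrays were of Agilent design 039494 (hg19), read with Feature Extraction 10.7.3.1, and the deposited processed intensity had spatial and multiplicative detrending within each array, and surrogate values in dim spots. The authors' deposited value table, on the log2 scale, was an alternative; the submitters' processing notes name limma, and its making is otherwise not given in the sources used here. Its medians were 6.21, 6.18 and 6.21 on mock and 6.21, 6.18 and 6.22 on NUDT16 arrays; it ran with the scanner's log2 signal on every array (r at least 0.933), so its scale and direction are known and its background step is not. Control and outlier spots were left out. Log2 intensity was shifted by each array's 75th percentile (282, 91.7 and 250 on mock, 220, 8.57 and 359 on NUDT16 arrays) and spots of a probe were averaged. A probe was well above background where more than 50% of its spots were. Probes so found on all 3 arrays of a group (17765) entered limma 3.58.1 (R 4.3.3) without a block, with Benjamini-Hochberg adjustment at 0.05. The number of arrays limits the precision.

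Arrays of one number share a slide and a scan, and their deviations from their own group's mean had correlations of 0.84, 0.39 and 0.77, so the numbers pair the arrays. Genes given in full were the 4 members of each class and direction with the largest difference among those detected on all 6 arrays, those without overlap and those whose probes disagree in sign; others named were chosen after their values were seen. Members and lists were chosen with earlier results of these data known. Array gene names are kept; through RefSeq accessions all 36 matched a GRCh38.p14 gene table, 18 under a newer symbol (GARS1 for GARS). Alternatives were other background corrections, scalings and filters, the replicate block, other error models, the deposited table, averaging the probes of each gene, leaving out arrays, and, chosen after seeing the data, removing the probe GC trend. The fit was tested on simulated data. Probe sequences of some members are not reported here.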

Additional observations from a re-analysis of the deposited data

How the results depend on the processing

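None of the settings run called a synthetase gene. Of 17 genes followed through the settings, GARS, LARS, DARS, EPRS, TARS, CARS and KARS kept their sign in every setting that gave them a value. FARSB, NARS, IARS2 and NARS2, with differences also among the lowest, were not followed in this way. The genes that kept their sign had been chosen for their differences or lack of overlap in these data. Some settings could not turn a negative sign. The block left each difference unchanged, and a median shift or no scaling moved all genes down. The replicate block changed no call: DARS stayed at -1.37 with limma's adjusted p at 0.482. In simulated data for 3 arrays against 3 on 17765 probes, 0% of changes of 1 or 2 on the log2 scale were recovered, and 62% of changes of 4. The count of 1 probe called went to 0 with normexp, unscaled arrays, no filter, a filter on detection on all 6 arrays, the value table and the GC trend removed under the block. Averaging the probes of each gene gives no count of probes, and the strictest filter drops GARS and CARS. The count was 503 on replicates 1 and 3 with the block, 613 there with scaling on detected probes and 238 there with the GC trend removed.

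The cytosolic median was -1.34 with a median shift and -1.72 without scaling, and the mitochondrial -0.73 and -1.10, where all genes tested moved to -0.69 and -1.06. The partner median was -0.85 and -1.22. With normexp the mitochondrial median was -0.29 and the partner median -0.51. The gap between the classes was -0.30 on replicates 1 and 3 under either scaling, -0.27 there with the GC trend removed, and between -0.91 (without NUDT16 replicate 3) and -0.29 (without NUDT16 replicate 1) when one array was left out; it was -0.31 without NUDT16 replicate 2 and -0.34 without mock replicate 3. The cytosolic median then lay between -0.88 and -0.25, the mitochondrial between -0.35 and 0.063 and the partner median between -0.29 and -0.002; on replicates 1 and 3 with the block the partner median turned to 0.073, and to 0.065 there with the GC trend removed. A median shift and the lack of scaling each move the difference of every gene by one amount. The cause of the other moves was not tested.

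Single genes turned sign as follows. With a median shift AARS2 was at -0.45, FARSA -0.18, MARS -0.59, QARS -0.31, SARS -0.70, VARS -0.48 and VARS2 -0.26. Without scaling they were at -0.82, -0.56, -0.97, -0.69, -1.07, -0.86 and -0.63, and with normexp at -0.29, -0.031, -0.39, -0.18, -0.55, -0.17 and -0.25. SARS was at -0.075 with scaling on detected probes, -0.044 with quantile normalization, -0.023 with the value table and -0.16 on replicates 1 and 3 with scaling on detected probes. CARS2 was at 0.35 with array weights, 0.024 with the value table, 0.42 on replicates 1 and 3, 0.20 there with scaling on detected probes and 0.28 there with the GC trend removed. TARS2 was at 0.30, 0.081 and 0.37 in those 3 fits, and with the GC trend removed TARS2 was at 0.066 and VARS at -0.23, with or without the block. When one array was left out, the ranges were -0.10 to 0.998 for FARSA, -0.23 to 0.35 for MARS, -0.065 to 0.80 for QARS, -0.034 to 0.10 for SARS, -0.35 to 0.64 for VARS, -0.11 to 0.94 for VARS2, -0.61 to 0.52 for CARS2, -0.42 to 0.11 for HARS2 and -0.27 to 0.18 for TARS2.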
